A study of Mus musculus with 6 samples.

Results

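Catenins and cadherins are the core of the adherens junction, and the 10 genes described here are the catenins Ctnnb1, Jup, Ctnna1 and Ctnnd1 and the cadherins Cdh15, Cdh2, Cdh4, Cdh6, Cdh11 and Cdh13. They were taken by gene symbol from a table of 23279 named genes, and all 10 were measured on all 6 arrays. Activated cultures (n = 3) were primary myoblasts treated with 4-OH tamoxifen in ethanol, and control cultures (n = 3) received ethanol alone. Cells of both groups came from limb muscles of C57bl6N mice that carried a tamoxifen-inducible Cre (CreERT2) expressed under Pax7 control and 1 beta-catenin allele with exon 3 between loxP sites, the other allele being wild type. Each condition had 3 independent cultures, grown for 5 passages in Ham F10 with 20% FBS and 2 ng/ml bFGF and then kept in DMEM with 2% HS for 24 hours to differentiate; whether they came from separate animals is not stated. Neither the age of the mice, the dose of tamoxifen nor the share of recombined cells is stated in the labels. No culture without Cre received tamoxifen, so an effect of the agent and an effect of recombination cannot be told apart.

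Cadherins are calcium-dependent transmembrane receptors that hold neighbouring cells together by binding each other across the gap. Their cytoplasmic tails bind beta-catenin or its close relative plakoglobin (Jup) at the far end and p120-catenin (Ctnnd1) next to the membrane, and alpha-catenin (Ctnna1) ties the complex to actin. Beta-catenin (Ctnnb1) is also the transcriptional effector of canonical Wnt signalling, and exon 3 holds the phosphorylation sites that target it for degradation. In muscle precursors, M-cadherin (Cdh15) and N-cadherin (Cdh2) stand at contacts between myoblasts before and during fusion.

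Levels are log2 expression values, so that 1 unit is a 2-fold difference, and each difference is activated minus control. Of 8 myoblast genes, Cdh15 among them, 6 were higher (5 after quantile normalization) and 2 lower in activated cultures, with a mean level of 7.64 to 8.18 in activated and 7.38 to 7.87 in control cultures. They include Myod1, a myogenic transcription factor, at 8.77, 9.45 and 10.2 in activated and at 8.65, 9.66 and 9.67 in control cultures, and in Pax7, the muscle stem cell factor, at 7.08 to 7.99 and at 7.77 to 8.39. Several defining markers of other cell types lay below the median of every array, a rough guide only because probe sets differ in brightness. The endothelial Pecam1 reached at most 3.32, the leukocyte Ptprc 2.75, the epithelial Epcam 2.81 and the fibroblast receptor Pdgfra 3.35, where the median of an array lay between 4.08 and 4.37. Other such markers lay above the median of their array. The pericyte marker Rgs5 was at 7.17, 7.50 and 8.74 in activated and at 9.62, 10.5 and 8.67 in control cultures, and the macrophage marker Cd68 at 5.08, 5.32 and 6.66 and at 5.01, 4.91 and 7.33, highest in replicate 3 of both groups. Over the whole lists, the mean level of 8 fibroblast genes was 3.04 to 3.30 in activated and 3.38 to 3.66 in control cultures (7 of 8 lower), of 8 endothelial genes 3.14 to 3.33 and 3.35 to 3.53 (7 of 8 lower), of 7 leukocyte genes 3.72 to 4.01 and 3.90 to 4.59 (6 of 7 lower), of 7 pericyte genes 4.40 to 4.61 and 4.45 to 4.70 (5 of 7 lower), of 7 epithelial genes 3.72 to 3.88 and 3.95 to 4.08 (6 of 7 lower) and of 4 Schwann cell genes 3.45 to 3.61 and 3.64 to 4.27 (4 of 4 lower). Of all 23279 genes, 13896 were lower. After quantile normalization 5 of 8 fibroblast, 6 of 8 endothelial, 6 of 7 leukocyte, 2 of 7 pericyte, 4 of 7 epithelial and 4 of 4 Schwann cell genes were lower. The lists for differentiation and division also differed between the groups in mean level, although 0 of their genes passed adjustment in limma with group only. The mean level of 10 myocyte genes was 9.55 to 10.4 in activated and 7.75 to 8.95 in control cultures, with 9 of 10 higher. Of them, 6 were higher at an unadjusted p under 0.05, beside 4.44% of all genes, and 1 passed adjustment with the block, beside 0.133%. The mean level of 9 cell cycle genes was 5.01 to 6.54 in activated and 7.06 to 7.86 in control cultures, with 9 of 9 lower. Of them, 8 were lower at an unadjusted p under 0.05, beside 3.42% of all genes, and 0 passed adjustment with the block. The part of these differences in the results below was not tested, and in bulk RNA fewer cells of a type and less RNA per cell cannot be told apart.

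Among the 10 genes, plakoglobin, M-cadherin and T-cadherin (Cdh13) were higher and K-cadherin (Cdh6) was lower in activated cultures, all at unadjusted p only, and the mean of beta-catenin was 8.54 in activated and 8.52 in control cultures. No member passed an adjusted p of 0.05 in limma with group only, and 0% of all 23279 genes passed. An unadjusted p under 0.05 was found for 4 of 10: 3 higher (Jup, Cdh15 and Cdh13), where 4.44% of all genes were higher at that level, and 1 lower (Cdh6), where 3.42% were lower. With the replicate number as a block, which passed 0.133% of all genes, 0 members passed, and the smallest adjusted p among them were 0.0662 for Cdh6 and 0.0698 for Jup. Every activated array lay above every control array for Cdh15 and Cdh13 (5.4% of all genes) and below for Cdh6 (7.4% of all genes). The sign of the difference was positive in all 3 numbered pairs for Jup, Cdh15, Cdh13 and Ctnna1 (16.6% of all genes) and negative in all 3 for Cdh6 (25.0% of all genes). The median difference of the 10 members was 0.23, beside -0.08 for all genes. It was 0.09 after quantile normalization, beside -0.01 for all genes, and 0.03 after cyclic loess, beside -0.003.

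**Figure D1:**
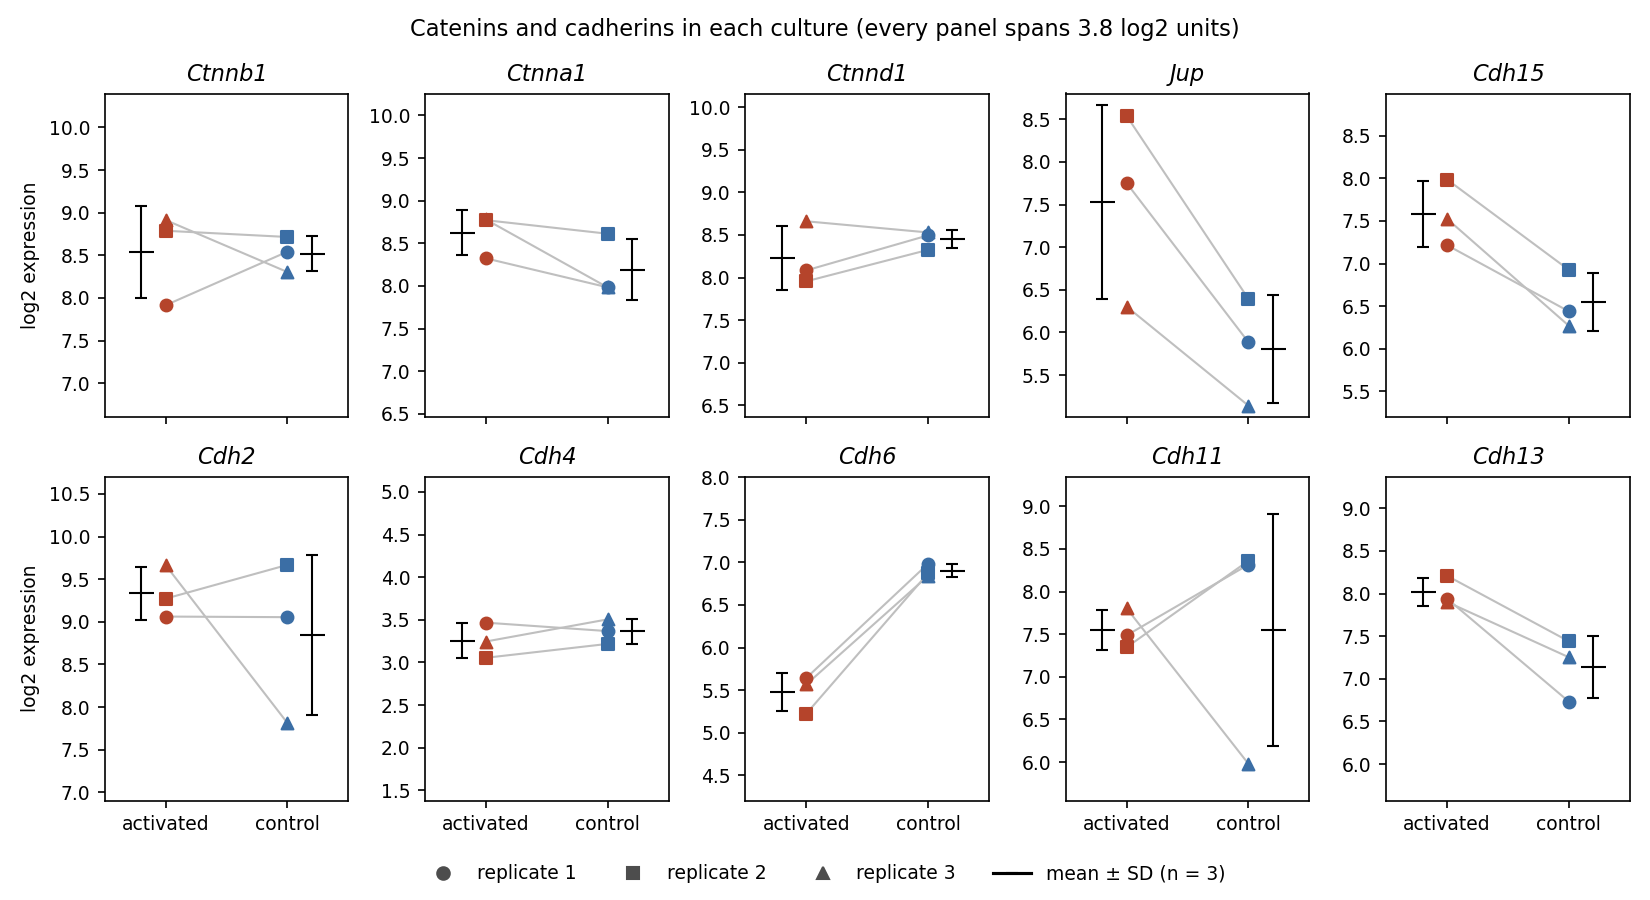
Log2 expression of each of the 10 genes (vertical axis) in the activated and control cultures (horizontal axis), with a point for each array, a line joining arrays of the same replicate number, and the mean ± SD over 3 cultures beside the points. The activated points of Cdh15 and Cdh13 lie above all control points and those of Cdh6 below, whereas Cdh2 and Cdh11 have a low point in control replicate 3 (7.82 and 5.98).

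The catenin Ctnnb1 (Entrez 12387) is the gene that recombination alters. Its level was 7.91, 8.79 and 8.91 in activated cultures 1, 2 and 3 and 8.54, 8.72 and 8.30 in control cultures 1, 2 and 3. The activated arrays lay on both sides of the control arrays, with activated replicate 1 the lowest of the 6. The difference was 0.02 ± 0.31 (SE), with a 95% interval from -0.71 to 0.75 (limma, adjusted p = 0.988), so with 3 arrays a group a difference inside that interval could not be told from none. In the pairs it was -0.63, 0.07 and 0.61, and after quantile normalization and cyclic loess it was -0.35 and -0.39. The probe set summarizes the gene as a whole, and a deletion of exon 3 alone cannot be read from it.

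Jup (Entrez 16480) encodes plakoglobin, which binds the same site of cadherin tails as beta-catenin and also lies in desmosomes. It was at 7.75, 8.54 and 6.30 in activated cultures 1, 2 and 3 and at 5.89, 6.39 and 5.14 in control cultures 1, 2 and 3. The groups overlapped, because activated replicate 3 lay just below control replicate 2. The difference was the largest of the 10 genes as deposited. It was smaller in size than that of Cdh6 after quantile normalization (1.54, against -1.58) and after cyclic loess (1.51, against -1.58). The same was so without activated replicate 2 (1.22, against -1.29) and without control replicate 3 (1.39, against -1.45). As deposited, the Jup difference was 1.73 ± 0.58 (SE) or 3.31-fold (95% interval 0.36 to 3.09, limma adjusted p = 0.519). It was 1.87, 2.15 and 1.16 in pairs 1, 2 and 3, and the interval with the block ran from 1.11 to 2.34 (adjusted p = 0.0698). Activated cultures were also more spread for Jup (SD 1.13) than the typical gene (median SD 0.28), and without activated replicate 3 the difference was 2.34. In the same array that had the lowest activated Jup level, the cell cycle genes were at their highest activated level (6.54, against 5.13 and 5.01 in activated replicates 1 and 2). The control cultures ran the other way. Control replicate 2 had both the highest control Jup level and the highest control cell cycle level (7.86, against 7.13 and 7.06 in control replicates 1 and 3). The part of the cell cycle level in the Jup value was not tested.

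The balance of beta-catenin and plakoglobin was followed as the within-array log2 ratio of their values, which array-wide shifts leave unchanged. This ratio was 0.16, 0.25 and 2.61 in activated and 2.66, 2.32 and 3.16 in control cultures. Activated replicates 1 and 2 stood far below all control arrays, and activated replicate 3 lay within their range, and the ratio was lower in all 3 pairs (-2.49, -2.07 and -0.55). The difference was -1.71 (exact permutation test over arrays, two-sided p = 0.2, where 3 against 3 allows 0.1 at the least), and it was -2.51 without activated replicate 3.

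Alpha-catenin Ctnna1 (Entrez 12385) was at 8.32, 8.77 and 8.78 in activated cultures and at 7.98, 8.61 and 7.98 in control cultures. The difference of 0.43 ± 0.27 (SE; limma, adjusted p = 0.729) had a 95% interval that included 0 (-0.20 to 1.06). Quantile normalization left a difference of 0.10, and cyclic loess one of 0.03. The p120-catenin gene Ctnnd1 (Entrez 12388), whose product keeps cadherins at the cell surface, was at 8.08, 7.96 and 8.66 in activated and 8.50, 8.33 and 8.53 in control cultures. Activated replicates 1 and 2 were the lowest of the 6 arrays and activated replicate 3 was the highest. The difference was -0.22 ± 0.25 (SE; limma, adjusted p = 0.813), -0.54 after quantile normalization and -0.61 after cyclic loess.

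Cdh15 (Entrez 12555) encodes M-cadherin, the cadherin most closely tied to skeletal muscle. It was at 7.22, 7.99 and 7.53 in activated cultures 1, 2 and 3 and at 6.44, 6.93 and 6.27 in control cultures 1, 2 and 3. All activated arrays exceeded all control arrays. The difference was 1.03 ± 0.29 (SE) or 2.04-fold (95% interval 0.35 to 1.71; limma, adjusted p = 0.411), and it was 0.78, 1.06 and 1.25 in the pairs. It stayed between 0.83 and 1.22 with any array left out and was 0.77 after quantile normalization and after cyclic loess.

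Cdh13 (Entrez 12554) encodes T-cadherin, an atypical member that is held by a lipid anchor and has no cytoplasmic tail to bind catenins. It was at 7.94, 8.21 and 7.90 in activated cultures and at 6.73, 7.44 and 7.25 in control cultures. The activated arrays differed little among themselves (SD 0.17) and all lay above the control arrays. The difference was 0.88 ± 0.26 (SE) or 1.83-fold (95% interval 0.28 to 1.48; limma, adjusted p = 0.433), and 0.60 after quantile normalization and 0.56 after cyclic loess.

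Cdh6 (Entrez 12563), K-cadherin, is a type II cadherin known from kidney and neural crest. It was at 5.64, 5.22 and 5.57 in activated cultures 1, 2 and 3 and at 6.98, 6.87 and 6.84 in control cultures 1, 2 and 3. The control arrays were nearly identical (SD 0.08), and the activated arrays all lay more than 1 log2 unit below them. The difference was -1.42 ± 0.22 (SE), or 2.68-fold lower in activated cultures, with a 95% interval from -1.93 to -0.92. Its unadjusted p of 0.000245 was the smallest of the 10 genes, and the adjusted p was 0.175 in limma and 0.0662 with the block. The difference stayed between -1.50 and -1.29 with any array left out, and was -1.58 after both quantile normalization and cyclic loess. The mean level of the cell cycle genes was 5.13, 5.01 and 6.54 in activated cultures 1, 2 and 3 and 7.13, 7.86 and 7.06 in control cultures 1, 2 and 3, and its part in the Cdh6 value was not tested.

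**Figure D2:**
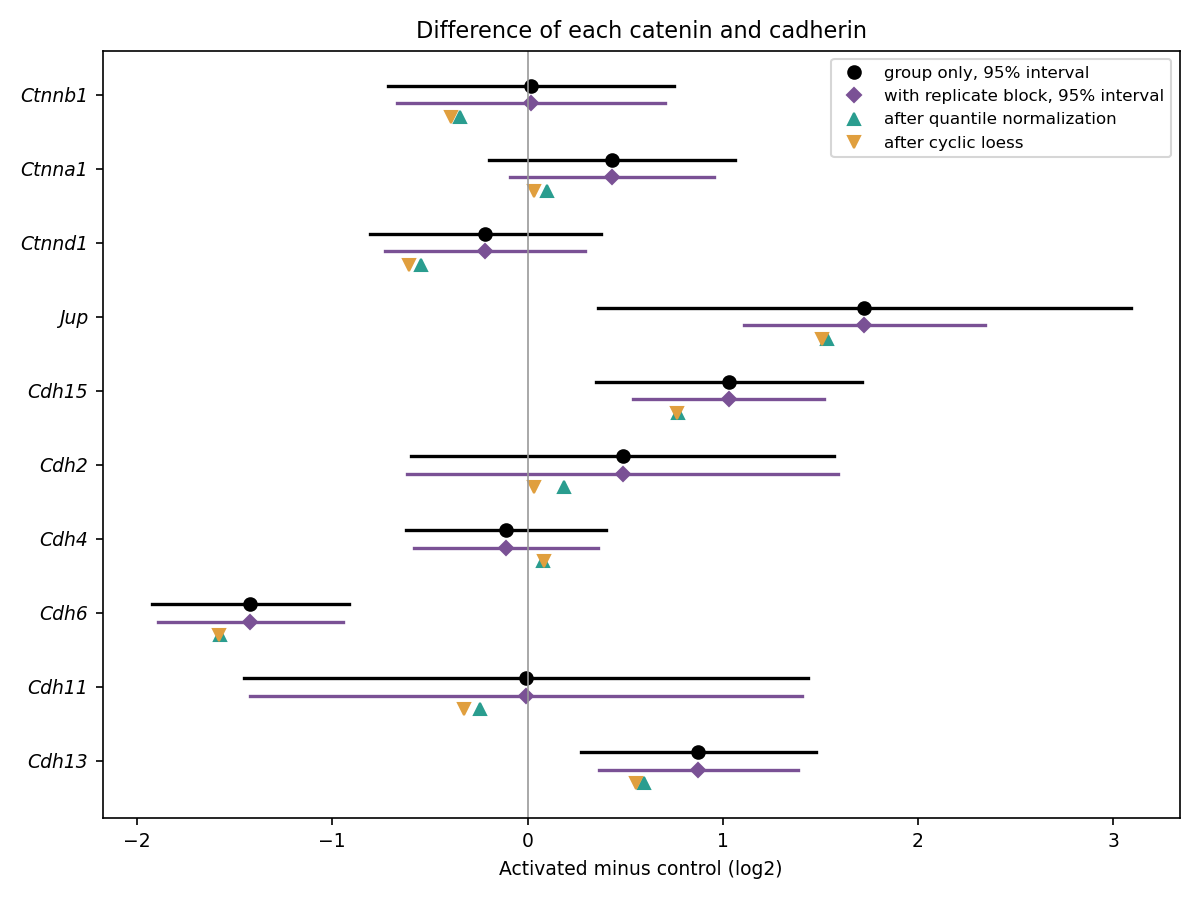
Difference of each gene, activated minus control on the log2 scale (horizontal axis), with 95% intervals from the fit with group only and from the fit with the replicate block, and the point estimates after quantile normalization and cyclic loess. The intervals of Jup, Cdh15, Cdh13 and Cdh6 exclude 0 without adjustment for the number of genes, and those of the other 6 genes include it.

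Promoter sequence is shown for the members whose levels stood furthest apart between the groups and that have an entry in the promoter table, to set the stretch around their start sites beside the values above. The sequences are RefSeq's (GRCm38.p6), each 300 bases from 250 before to 50 after the annotated start, and capitals mark a TCF/LEF-type motif, the element at which beta-catenin partners bind DNA. Of the 10 members, 5 had entries (Ctnnb1, Ctnnd1, Jup, Cdh15 and Cdh6), and Ctnna1, Cdh2, Cdh4, Cdh11 and Cdh13 had none.
Jup, chr11:100397741-100398040, minus strand: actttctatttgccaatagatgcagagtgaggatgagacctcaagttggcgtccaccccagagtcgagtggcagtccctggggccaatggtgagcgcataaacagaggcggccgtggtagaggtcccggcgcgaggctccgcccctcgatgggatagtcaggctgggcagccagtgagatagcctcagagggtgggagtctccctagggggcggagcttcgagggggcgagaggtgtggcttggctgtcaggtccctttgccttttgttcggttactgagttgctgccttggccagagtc
Cdh15, chr8:122848124-122848423, plus strand: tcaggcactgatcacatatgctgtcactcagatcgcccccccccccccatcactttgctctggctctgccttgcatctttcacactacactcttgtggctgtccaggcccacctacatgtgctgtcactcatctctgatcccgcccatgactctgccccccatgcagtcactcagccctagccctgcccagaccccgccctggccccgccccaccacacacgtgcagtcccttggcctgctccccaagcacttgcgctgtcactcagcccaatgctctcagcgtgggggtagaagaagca
Cdh6, chr15:13173626-13173925, minus strand: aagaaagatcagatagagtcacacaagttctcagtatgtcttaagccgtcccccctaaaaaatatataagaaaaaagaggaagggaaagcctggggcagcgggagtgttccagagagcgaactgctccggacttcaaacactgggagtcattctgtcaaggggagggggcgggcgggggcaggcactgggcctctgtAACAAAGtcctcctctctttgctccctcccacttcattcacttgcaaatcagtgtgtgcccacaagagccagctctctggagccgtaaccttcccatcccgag

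Both strands were searched for the TCF/LEF motif CTTTGAA, its variant form CTTTGAT, the further variant CTTTGTA and the remaining variant CTTTGTT. For the E-box bound by myogenic factors, the letters searched were CAGCTG and, as a second form, CAGGTG. The Cdh6 window held 1 TCF/LEF-type match, AACAAAG on the gene's strand, the reverse complement of CTTTGTT, starting 53 bases before the start. Such a match was present in 16.9% of all 32851 promoter windows in the table. The windows of Jup and Cdh15, both windows of Ctnnb1 and both of Ctnnd1 held neither motif, and an E-box of these letters was present in 32.9% of all windows. The Ctnnb1 windows were rich in G and C (75.3% and 75.0%), against 67.7% and 42.7% for Ctnnd1, 61.3% for Cdh15, 60.7% for Jup, 53.0% for Cdh6 and a median of 52.7% over all windows. A match describes the letters of 1 window and says nothing of binding.

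N-cadherin, Cdh2 (Entrez 12558), was at 9.06, 9.27 and 9.67 in activated cultures and at 9.06, 9.67 and 7.82 in control cultures. Control replicate 3 lay below all other arrays, and the remaining control arrays covered the same range as the activated ones. The difference of 0.49 ± 0.46 (SE; limma, adjusted p = 0.783) became -0.03 without control replicate 3. The within-array log2 ratio of Cdh15 to Cdh2, the classical cadherins of the myoblast contact, was -1.85, -1.29 and -2.14 in activated and -2.62, -2.74 and -1.55 in control cultures. The groups overlapped through control replicate 3, and the difference was 0.54 (exact permutation test, two-sided p = 0.3, smallest possible 0.1) and 0.92 without that array.

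Cdh11 (Entrez 12552), OB-cadherin, is a type II cadherin of mesenchymal cells and osteoblasts. It was at 7.49, 7.35 and 7.80 in activated cultures 1, 2 and 3 and at 8.32, 8.36 and 5.98 in control cultures 1, 2 and 3. Control replicates 1 and 2 lay above every activated array and control replicate 3 far below, so the control SD was 1.36 where the median gene had 0.36. The difference was -0.01 ± 0.62 (SE; limma, adjusted p = 0.997), and without control replicate 3 it was -0.79 (adjusted p = 0.552). In control replicate 3 the myocyte genes were also at their lowest mean level (7.75, against 8.81 and 8.95 in control replicates 1 and 2), and Myog, the transcription factor of differentiating myoblasts, was at 6.51 there against 8.68 and 8.85. The fibroblast marker list had a mean level of 3.38 in control replicate 3 and 3.66 and 3.46 in control replicates 1 and 2. The pericyte list was also lowest there (4.45, against 4.70 and 4.59). The leukocyte list was highest there (4.59, against 4.20 and 3.90), as was the Schwann cell list (4.27, against 3.97 and 3.64). The endothelial and epithelial lists lay between control replicates 1 and 2. The part of these levels in the Cdh11 value was not tested.

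R-cadherin, Cdh4 (Entrez 12561), a classical cadherin first known from retina, was at 3.47, 3.06 and 3.25 in activated cultures and 3.37, 3.22 and 3.51 in control cultures. All 6 values lay below the median of their array, and the groups overlapped. The difference was -0.11 ± 0.22 (SE; limma, adjusted p = 0.889). No detection calls were used here, so a level this low cannot be told apart from background.

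**Figure D3:**
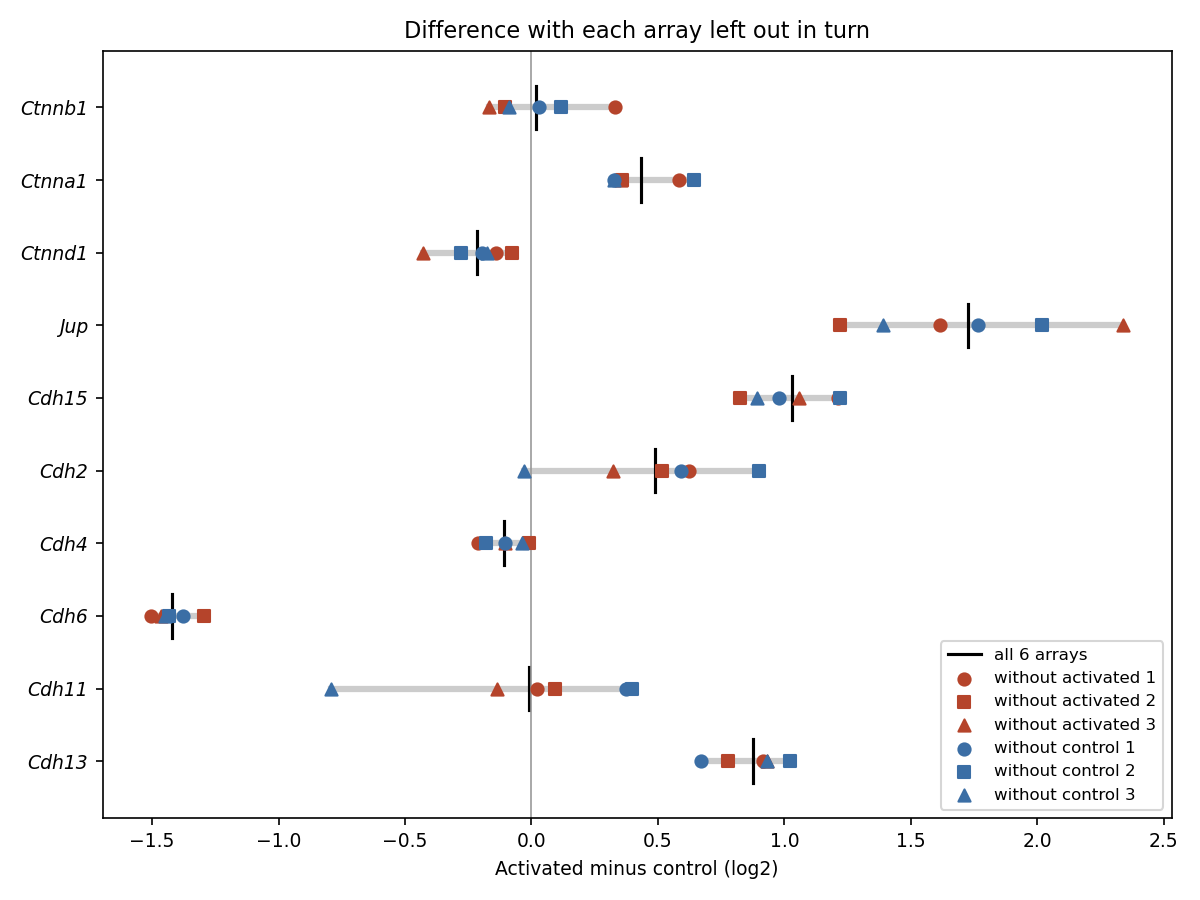
Difference of each gene, activated minus control on the log2 scale (horizontal axis), with all 6 arrays (black bar) and with each array left out in turn (points). Cdh6, Cdh15, Cdh13, Ctnna1 and Ctnnd1 keep to narrow ranges on 1 side of 0, and Jup to a wider one (1.22 to 2.34). Cdh11 spans -0.79 to 0.40, its lowest value being the one without control replicate 3.

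The rest of the family was set beside these genes. As background for the lists below, 9383 of all 23279 genes were higher and 13896 lower as deposited. After quantile normalization 11218 were higher and 12061 lower. Of 17 other cadherins measured, 2 were higher and 15 lower in activated cultures, with a median difference of -0.22, and 0 had an unadjusted p under 0.05 in limma (0 passed after adjustment, with or without the block). Their levels were low, 14 of 17 with a mean under 4, and after quantile normalization the median difference was -0.06 with 13 lower. The members with the smallest p were the epithelial cadherin Cdh1 (3.18 ± 0.04 in activated and 3.68 ± 0.38 in control cultures; SD, n = 3), Cdh12 (1.94 ± 0.22 and 2.39 ± 0.40) and Cdh26 (4.08 ± 0.21 and 4.50 ± 0.36). The endothelial cadherin Cdh5 averaged 3.42 and 3.68 and the Schwann cell cadherin Cdh19 2.36 and 2.57 in activated and control cultures, all below the array medians.

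Of 9 other catenins and armadillo relatives, 3 were higher and 6 lower, with a median difference of -0.21 and 0 past adjustment. Ctnnal1, alpha-catulin, a relative of alpha-catenin, was at 4.82, 4.89 and 4.27 in activated and at 6.46, 6.74 and 5.69 in control cultures. All activated arrays lay below all control arrays, with a difference of -1.64 ± 0.33 (SE; limma, adjusted p = 0.278, and 0.0541 with the block). Pkp4, a p120-related armadillo protein of junctions, was at 7.83 ± 0.12 in activated and 7.17 ± 0.19 in control cultures (SD, n = 3). The neural delta-catenin Ctnnd2 was low at 3.64 ± 0.26 and 4.14 ± 0.33, and so were the other alpha-catenins Ctnna2 (2.46 and 2.66) and Ctnna3 (3.30 and 3.28).

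Proteins that link junctions to actin or modify them leaned to higher levels as deposited, with 15 of 21 genes higher, but 8 of 21 were higher after quantile normalization and the median difference of 0.17 became -0.02. No gene passed adjustment, 4 had an unadjusted p under 0.05 and all 4 were higher, where 4.44% of all genes were higher at that level. Vinculin (Vcl), which binds alpha-catenin under tension, was at 9.06, 9.52 and 9.48 in activated and 7.96, 8.50 and 8.14 in control cultures, a difference of 1.15 ± 0.25 (SE; limma, adjusted p = 0.293). The kinase Fyn, which acts on junction proteins, was at 8.82 ± 0.31 in activated and 7.45 ± 0.46 in control cultures (SD, n = 3), and the receptor phosphatase Ptprm, itself an adhesion molecule, at 6.95 ± 0.23 and 5.92 ± 0.48. For Vcl, Fyn and Ptprm all activated arrays lay above all control arrays, also a feature of 5.4% of all genes.

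Of 11 genes that carry signals from cadherin contacts in myoblasts, 9 were higher (6 after quantile normalization), with a median difference of 0.33 as deposited, 0.05 after quantile normalization and -0.16 after cyclic loess. Trio, an exchange factor for Rac1 that acts with M-cadherin in mouse myoblast fusion, was at 7.87, 7.81 and 8.20 in activated and 6.61, 6.73 and 7.45 in control cultures, with no overlap and a difference of 1.03 ± 0.29 (SE; limma, adjusted p = 0.403). The p38 kinase gene Mapk14 was at 5.84 ± 0.13 in activated and 5.25 ± 0.22 in control cultures (SD, n = 3). The receptor Neo1 was at 7.32 ± 0.54 and 6.92 ± 0.32, groups that overlapped.

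Canonical Wnt signalling was read from 9 feedback and target genes, of which 6 were higher and 3 lower, the lower ones by -0.19 to -0.12. An unadjusted p under 0.05 was found for 3, all higher, where 4.44% of all genes were higher at that level, and 0 passed adjustment. The mean level was under 5 for 5 of the 9 genes. Axin2, the feedback inhibitor used as a readout, was at 5.50, 5.85 and 6.54 in activated cultures 1, 2 and 3 and at 4.55, 3.81 and 4.59 in control cultures 1, 2 and 3. Nkd1, another feedback inhibitor, was at 4.23 ± 0.18 in activated and 3.28 ± 0.14 in control cultures (SD, n = 3), and the receptor Tnfrsf19 at 6.58 ± 0.70 and 4.36 ± 0.57. The lowest activated Axin2 level was that of replicate 1, the array with the lowest Ctnnb1 level. Nkd1 was highest in that array (4.40, against 4.23 and 4.04 in activated replicates 2 and 3), and Tnfrsf19 was lowest in activated replicate 3 (5.98). The mean level of the 9 genes was 5.17, 5.16 and 5.14 in activated cultures 1, 2 and 3. Among control arrays, replicate 2 had the lowest Axin2 level and the highest Ctnnb1 level.

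**Figure D4:**
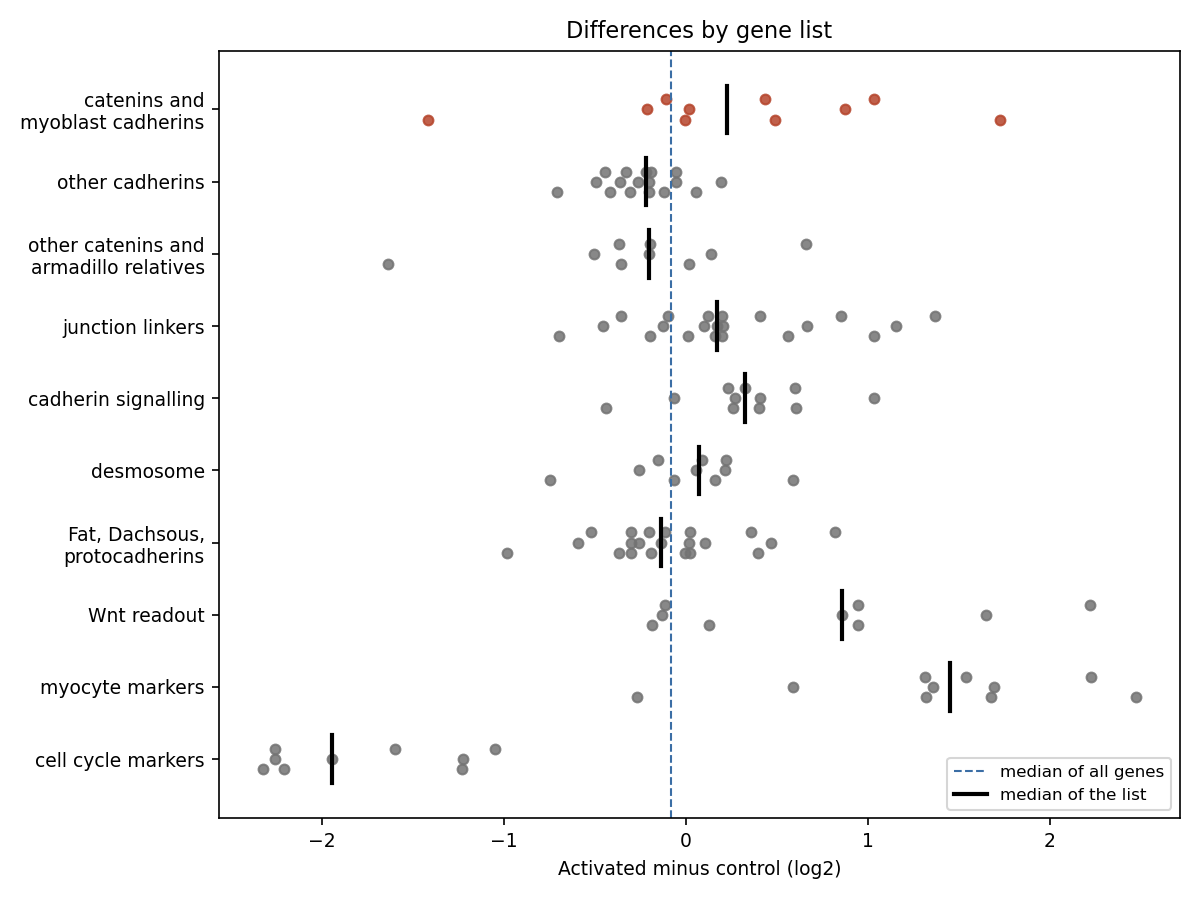
Difference of each gene, activated minus control on the log2 scale (horizontal axis), by gene list, with the catenins and cadherins described here in the top row, a black bar at each list's median and a dashed line at the median of all genes (-0.08). Points are offset vertically for legibility. The 10 genes range from -1.42 (Cdh6) to 1.73 (Jup), and the 17 other cadherins from -0.71 to 0.19.

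Genes with the most similar pattern over the 6 arrays were found by Pearson correlation among about 3375 genes with a mean of at least 6 and an SD of at least 0.5, as a description in which all points share the same libraries and the same 2 groups. The pattern of Ctnnb1 was most like that of H2ax (r = 0.98), a histone of the DNA damage response, the spindle checkpoint gene Bub3 (0.97) and the tubulin Tubb5 (0.97), each lowest in activated replicate 1, where H2ax was at 5.26 and at 6.57 to 8.44 elsewhere. That of Cdh15 was most like Cyb5r3 (0.996), Gadd45a (0.995) and Pdlim4 (0.994), and 254 genes exceeded 0.9. That of Cdh6 was most like the lamin gene Lmnb1 (0.981), the junction protein paracingulin Cgnl1 (0.975) and the splicing protein Snrpa (0.97), with 42 genes above 0.9. Cgnl1 was at 5.79, 5.66 and 6.24 in activated and 7.31, 7.39 and 7.42 in control cultures. That of Cdh11 was most like the histone gene H2ac21 (0.99), Sdcbp (0.987), encoding syntenin, and the acetyltransferase Kat7 (0.962), all lowest in control replicate 3, where H2ac21 was at 3.74 and at 7.74 and 7.32 in control replicates 1 and 2.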

How the data were processed

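The authors deposited log2 expression values for 24479 probe sets on 6 arrays, and RMA and Partek are named in the submitters' processing notes without a version or a role. Biotin-labelled target was made from 100 ng of total RNA, per the labels' protocols. The labels name neither the array design nor the probe positions, and give no genome build and no detection call. The platform annotation gave 1 symbol to 23281 probe sets, several to 0 and none to 1198. For 2 symbols with several probe sets the brightest was kept, leaving 23279 genes.

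From these values limma 3.58.1 (R 4.3.3) fitted group as the only term over all genes, with two-sided moderated tests and Benjamini-Hochberg adjustment. No filter or pseudocount was applied. The fit was tested on simulated data. The values are intensities summarized per probe set, so levels of different genes are not on one scale; a level was set beside its array's median, or called under a fixed value, only as a rough guide to brightness, and the number of arrays limits the precision. The cultures are labelled independent without naming animals, and p-values therefore reflect culture-to-culture spread, which may be technical.

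Replicate numbers are shared by the groups, and deviations from group means correlated at 0.38, 0.49 and 0.45 for numbers 1, 2 and 3, which meets the criterion for numbers that pair the arrays (every correlation over 0.1). The main fit and the permutation tests stayed unpaired, and the fit with the block is given as an alternative. Array-wide spread also varied (SD 1.72 to 2.13), which can add to these correlations. Pearson correlations, exact permutation tests and motif searches were run in Python 3.11.15. All 10 members are named. From each of the 7 lists of other cadherins, other catenins, junction linkers, cadherin signalling, desmosome, large or non-classical cadherins and Wnt readout, the 3 genes with the smallest p are named, and for Ctnnb1, Cdh15, Cdh6 and Cdh11 the 3 most similar genes. Cdh5, Cdh18, Cdh19, Ctnna2, Ctnna3, Pcdh7, Nectin3, Myog, Cd68 and the other single cell type markers were chosen after their values were seen. The members, the lists and their tests were chosen with earlier results of these data known. Alternatives were the replicate block, quantile normalization with and without the block, median centring, cyclic loess, a filter on dim genes (mean of at least 5), all probe sets, an intensity trend with a robust prior, and each array left out. Ccnb1, Dchs2, Ly6a and Lyz2 of the lists were not analysed here.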

Additional observations from a re-analysis of the deposited data

How the results depend on the processing

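The count of members past an adjusted p of 0.05 was 0 in limma with group only and under each of the 14 alternatives. The count over all genes was 0 with group only, 31 with the replicate block, 0 with the block after quantile normalization and 0 to 28 with 1 array left out, the 28 without activated replicate 3. Of the 10 members, Jup, Cdh15, Cdh13, Cdh6, Ctnna1 and Ctnnd1 kept their sign under each of these alternatives. Ctnnb1 was at -0.35 after quantile normalization (also with the replicate block) and -0.39 after cyclic loess, and at -0.17 to 0.33 with 1 array left out. Cdh4 was at 0.079 after quantile normalization, with and without the block, 0.083 after cyclic loess and 0.019 after median centring, and has no value under the filter on dim genes, which leaves it out. Cdh11 was at 0.12 after median centring and at -0.79 to 0.40 with 1 array left out, and Cdh2 at -0.028 (without control replicate 3) to 0.90. Of the 33 other genes named by rule, 27 kept their sign throughout and 6, all named for likeness, did not. After quantile normalization (with and without the block) and cyclic loess, H2ax was at -0.02 and -0.029, Kat7 at -0.064 and -0.092, Sdcbp at -0.25 and -0.32 and Tubb5 at -0.16 and -0.22, and H2ac21 was at 0.02 after median centring. With 1 array left out, H2ax was at -0.30 to 1.29, Kat7 at -0.26 to 0.45, Sdcbp at -0.59 to 0.37, Tubb5 at -0.18 to 0.86, H2ac21 at -1.37 to 0.63 and Bub3 at -0.57 to 0.45. Of 16 genes named outside the rule, 10 kept their sign. Myod1 was at -0.195 after quantile normalization (with and without the block), -0.324 after cyclic loess and -0.217 to 0.516 with 1 array left out. Pdgfra was at 0.072, 0.08 and -0.287 to 0.038 in the same order, and 0.032 after median centring. Cd68 was at 0.063 after median centring and -0.551 to 0.726 with 1 array left out, where Pcdh7 was at -0.048 to 0.751, Ctnna3 at -0.064 to 0.098 and Ptprc at -0.058 to 0.128. Median centring moved all differences by 0.13. The causes of these changes were not tested. The ratio of Ctnnb1 to Jup kept its sign, at -2.51 to -1.28 with 1 array left out, and so did that of Cdh15 to Cdh2, at 0.31 to 0.92. With the numbers as pairs, exact sign-flip tests gave p = 0.25, the smallest that 3 pairs allow, and p = 0.5. Adding the replicate block changed no call of a member.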

Other observations

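Among the other cadherins, Cdh18 was the only 1 of 17 with a mean above 6, and it was singled out after its values were seen. It was at 6.06, 6.22 and 6.23 in activated cultures and at 7.41, 7.92 and 5.30 in control cultures. As for Cdh11, control replicates 1 and 2 lay above every activated array and control replicate 3 below, and the difference was -0.71 ± 0.62 (SE; limma, unadjusted p = 0.291). The protocadherin Pcdh7 and the nectin Nectin3, a partner of cadherins at forming contacts, were also lowest in control replicate 3, at 6.30 and 5.74, and at 7.26 to 8.41 and 6.94 to 7.61 in the other 5 arrays.

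Desmosomal genes, the other site of plakoglobin, were mostly low, with 8 of 10 at a mean under 5, 6 higher and 4 lower, and 0 with an unadjusted p under 0.05. Desmoplakin (Dsp), which plakoglobin binds in desmosomes, was at 4.34, 4.16 and 3.26 in activated cultures and at 3.41, 3.25 and 3.33 in control cultures, so that activated replicates 1 and 2 stood above all control arrays as they did for Jup. Pnn, a nuclear speckle protein also known from desmosomes, was at 7.75 ± 0.41 in activated and 8.50 ± 0.55 in control cultures (SD, n = 3), and the desmocollin Dsc1 at 2.48 ± 0.25 and 2.74 ± 0.14. Of 21 large or non-classical cadherins, 8 were higher and 13 lower. Dchs1, a ligand of Fat cadherins, was at 5.55 ± 0.27 in activated and 4.73 ± 0.59 in control cultures, Pcdh20 at 3.46 ± 0.30 and 4.44 ± 0.51 and Fat3 at 2.66 ± 0.43 and 3.18 ± 0.18. In limma 0 of the 21 passed adjustment, with or without the block. At an unadjusted p under 0.05, 1 was higher and 1 lower, beside 4.44% and 3.42% of all genes.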
